A study of Bos taurus and Bos indicus with 6 samples.

Results

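Cell cycle and DNA replication genes were examined in circulating white blood cells of tick-infested cattle. The set was a list of 48 genes, chosen by function and with earlier results of these data known. It held the helicase and clamp of the replication fork, enzymes of deoxynucleotide supply, mitotic cyclins and kinases, the spindle checkpoint, kinetochore proteins and spindle motors. A gene was measured through any array probe set whose single gene symbol in the platform annotation is that gene, and where several exist the one with the highest mean over all arrays was used. This gave 38 of the 48 genes, out of 9155 genes on the array with a single symbol. MCM2, GINS1, GINS2, CDKN3, PTTG1, NUF2, KIF11, PRC1, TOP2A and MKI67 had no such probe set and were not analysed here. PTTG1 shares 1 probe set with another symbol, which was not used. MKI67 and TOP2A are widely used as markers of dividing cells.

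The animals were 3 Holstein cattle, labelled Bos taurus, and 3 Brahman cattle, labelled Bos indicus. All were females aged 6 months under heavy challenge with the cattle tick Rhipicephalus microplus, and no other treatment is given. Each animal's blood was freed of red cells by lysis, the whole pellet was used without sorting or culture, and total RNA was hybridised to 1 bovine GeneChip per animal. The comparison of the breeds therefore rests on 3 animals against 3, all infested, and holds any difference that exists between the breeds without ticks. All values are log2 expression values from RMA, so a difference of 1 is a factor of 2, and every difference is Brahman minus Holstein.

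A cell that divides first loads the MCM helicase onto replication origins with the help of CDC6, then copies its DNA with GINS, PCNA and the polymerases while ribonucleotide reductase, thymidylate synthase and thymidine kinase supply the nucleotides. Cyclin A and B with CDK1 then drive entry into mitosis, where the spindle checkpoint holds back CDC20 and the anaphase-promoting complex until every kinetochore is attached. Most of these transcripts are low in resting cells and rise together in dividing ones. Most mature leukocytes in blood do not divide, and activated lymphocytes and antibody-secreting precursors are known exceptions. In a whole white cell pellet, fewer dividing cells and less RNA per dividing cell cannot be told apart.

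The arrays were alike in overall level, with medians from 6.54 to 6.61. All 5 general leukocyte markers examined (PTPRC, CD52, CORO1A, LCP1, ITGB2) were bright, at mean levels of 11.36 to 13.04, and T cell, B cell, NK, monocyte and neutrophil markers were measured too. Of 3 haematopoietic progenitor markers, MEIS1 was below the lower quartile (5.08) over all probe sets, as were SLC4A1 and AHSP of 8 erythroid markers, while beta globin (HBB) read 9.73. The hybridisation spike-in controls, added at a fixed amount to each sample, were higher on every Holstein array (10.14 ± 0.22, SD, n = 3) than on any Brahman array (9.72 ± 0.08). Limma, fitted to 24016 probe sets, called 33 at an adjusted p under 0.05.

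Most cell cycle genes had lower values in Brahman, but only the centromere gene CENPS passed the test. Of the 38 genes 30 had a lower mean in Brahman (78.9%, against 51.7% of all 9155 genes), and the median difference was -0.19, against -0.01 over all genes. At an unadjusted p under 0.05, 8 genes were lower (CENPS, CCNB2, NUSAP1, CCNA2, BUB1B, TK1, KIF20A and TYMS), which is 21.1% of the members against 9.62% of all genes. STMN1 was the 1 gene higher at that threshold, 2.63% of the members against 6.23% of all genes. After adjustment over all probe sets, 1 member was called lower and 0 higher, where 0.0583% of all probe sets were called lower and 0.0791% higher. In 7 members every Brahman array lay below every Holstein array (18.4%, against 12.2% of all genes), and in 1, STMN1, every Brahman array lay above (2.63% against 10.4%). These counts describe the list, and genes of a list are not independent of each other. Whether the probes match these genes equally well in both breeds was not tested. Without Holstein 2, Brahman 1 or Brahman 3 the count of lower members at an unadjusted p under 0.05 was 5, 15 and 5, where 4.90%, 4.83% and 4.90% of all probe sets were lower at that threshold (6.47% with all arrays). The 1 call was lost without any single array. When the fit included the spike-in level, which itself separated the breeds, 2 members were lower at that threshold, against 4.42% of all probe sets. For these changed fits the shares were taken over all probe sets only. They are not on the same footing as the 9.62%, which counts 1 probe set per gene.

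Markers of gamma delta T cells, a large class of lymphocytes in young cattle, also differed between the breeds. All 4 that were measured (BLK, which B cells also express, CD163L1, ID3 and SOX4) had higher means in Brahman, with a median difference of 0.75. Each but SOX4 had every Brahman array above every Holstein array and an unadjusted p under 0.05, and 0 were called by limma. The log2 of their summed signal was 10.88 to 11.36 on the Brahman arrays against 10.07 to 10.45 on the Holstein arrays, and none lay below the lower quartile. The part of cell composition in the lower cell cycle values was not tested.

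**Figure D1:**
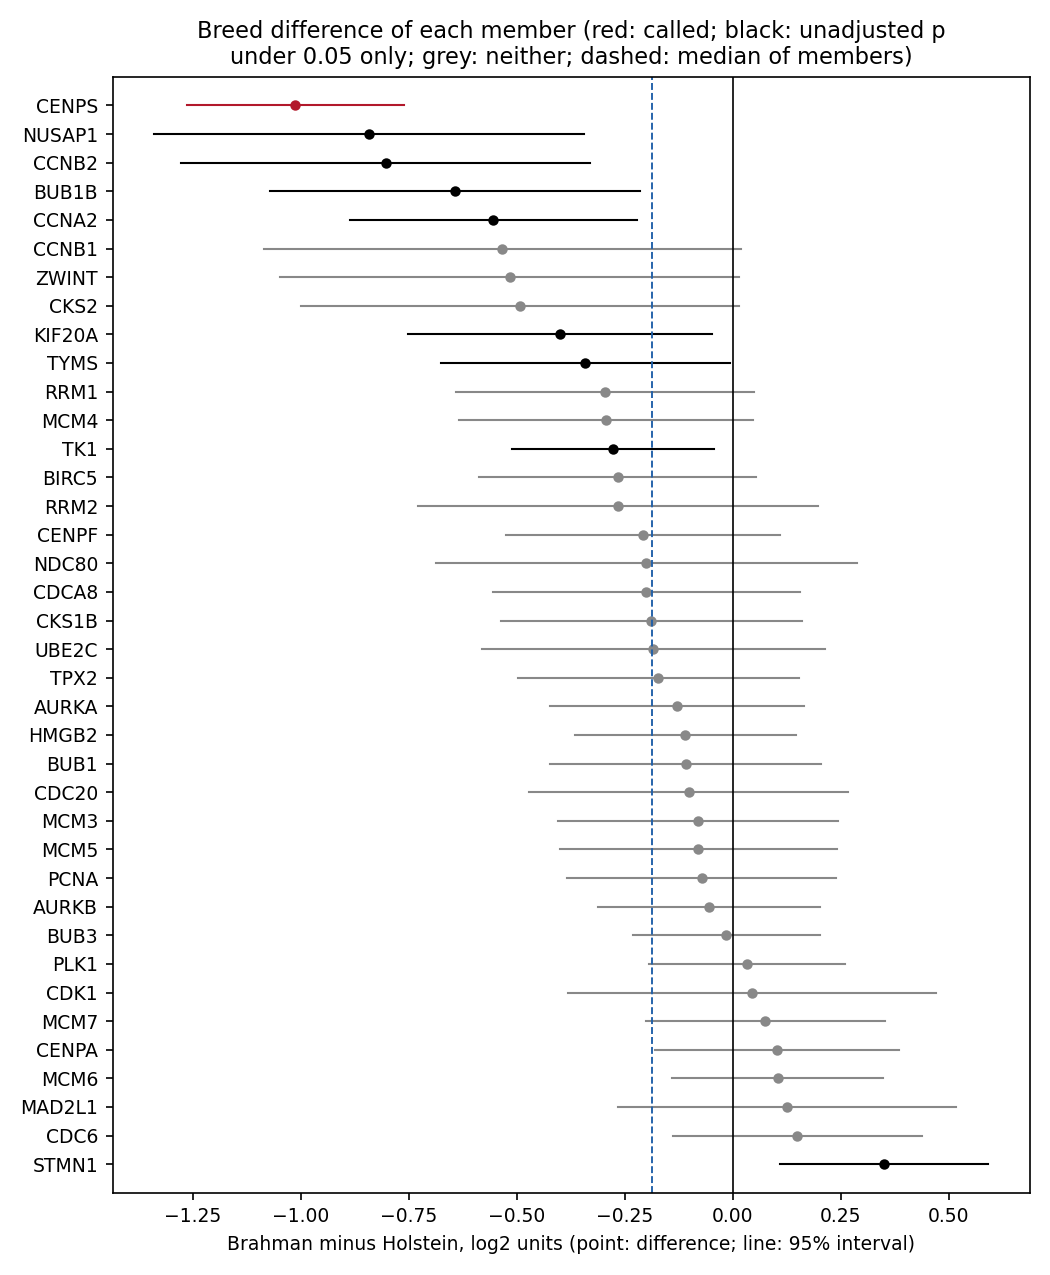
Brahman minus Holstein difference of each of the 38 measured cell cycle genes (x axis, log2 units), with the 95% interval from limma as a line. CENPS, in red at -1.01, is the 1 called gene, the median (dashed) lies at -0.19, and STMN1 at 0.35 is the highest of the 38.

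The 7 measured replication genes had differences of -0.29 to 0.15. Among MCM3, MCM4, MCM5, MCM6 and MCM7, subunits of the ring helicase that unwinds DNA, the differences were -0.08, -0.29, -0.08, 0.10 and 0.08, and none reached an unadjusted p under 0.05. MCM4 had the smallest p of the replication genes: it read 8.63, 8.73 and 8.45 on the Holstein arrays and 8.57, 8.07 and 8.30 on the Brahman arrays. Brahman 1 lay within the Holstein range and the other two Brahman animals below it, so the breeds overlapped (SE 0.15, unadjusted p = 0.0807). Its difference was -0.17 without Brahman 2. CDC6, the loader of the helicase, differed by 0.15 (95% interval -0.14 to 0.44), and by -0.14 (SE 0.12) on its second, dimmer probe set. PCNA, the sliding clamp that holds the polymerase on DNA, differed by -0.07 (95% interval -0.38 to 0.24). Averaged over these 7 genes, the level was 8.80 ± 0.06 in Holstein and 8.78 ± 0.12 in Brahman (SD, n = 3).

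The enzymes that supply deoxynucleotides had lower values in Brahman in all 4 cases, with differences of -0.34 to -0.27 and no call. Thymidine kinase 1 (TK1), which salvages thymidine in S phase, read 8.69, 8.63 and 8.52 in Holstein and 8.44, 8.37 and 8.21 in Brahman. Every Brahman value was below every Holstein value, with a difference of -0.28 (SE 0.10, unadjusted p = 0.026, adjusted p = 0.304). TK1 differed by -0.21 (unadjusted p = 0.0992) without Brahman 3 and by -0.37 (unadjusted p = 0.0857) with the spike-in level in the fit. Its unadjusted p stayed under 0.05 in 2 of the 6 fits with an array left out. Thymidylate synthase (TYMS), which makes thymidylate from deoxyuridylate, read 7.17, 7.44 and 7.25 in Holstein and 7.13, 6.67 and 7.05 in Brahman. The gap between the nearest animals of the breeds was small, and the difference was -0.34 (SE 0.14, unadjusted p = 0.0463, adjusted p = 0.361). It was -0.20 (unadjusted p = 0.148) without Brahman 2 and -0.11 (unadjusted p = 0.67) with the spike-in level in the fit. A dimmer TYMS probe set, at 4.55 in mean level and below the lower quartile, differed by -0.07. The ribonucleotide reductase subunits RRM1 and RRM2 differed by -0.30 and -0.27, and RRM2 read 9.30 on Brahman 1, above every Holstein array.

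Cyclin genes had some of the widest differences of the set, while the CDK1 values of the breeds were interleaved. Cyclin B2 (CCNB2), a partner of CDK1 at entry into mitosis, read 7.66, 8.07 and 7.36 in the 3 Holstein animals and 7.18, 6.70 and 6.81 in the 3 Brahman animals. The breeds did not overlap, and the difference was -0.80 (SE 0.20, unadjusted p = 0.00483, adjusted p = 0.195), 1.74-fold. With the spike-in level in the fit it was -0.48 (unadjusted p = 0.242). Cyclin A2 (CCNA2), which acts in S phase and early mitosis, read 6.50, 6.68 and 6.26 in Holstein and 6.09, 5.96 and 5.72 in Brahman. It too separated the breeds, at -0.55 (SE 0.14, unadjusted p = 0.00525, adjusted p = 0.199). Including the spike-in level in the fit gave -0.46 (unadjusted p = 0.14) for CCNA2. Cyclin B1 (CCNB1) read 6.51, 7.07 and 6.34 in Holstein against 6.49, 5.77 and 6.06 in Brahman, where Brahman 1 fell inside the Holstein range. Its difference of -0.53 was close to that of CCNA2 in size, but the spread between animals was wider (SE 0.24, unadjusted p = 0.0561).

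CDK1 itself, the mitotic kinase that these cyclins activate, read 6.94, 7.49 and 7.02 in Holstein and 7.40, 7.26 and 6.92 in Brahman. The values were interleaved, with a difference of 0.04 and a 95% interval of -0.38 to 0.47. The small CDK-binding proteins CKS2 and CKS1B differed by -0.49 (SE 0.22, unadjusted p = 0.0556) and -0.19 (SE 0.15). Over the 6 measured genes of this role the median difference was -0.51, and the level averaged 7.27 ± 0.26 in Holstein and 6.85 ± 0.25 in Brahman.

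**Figure D2:**
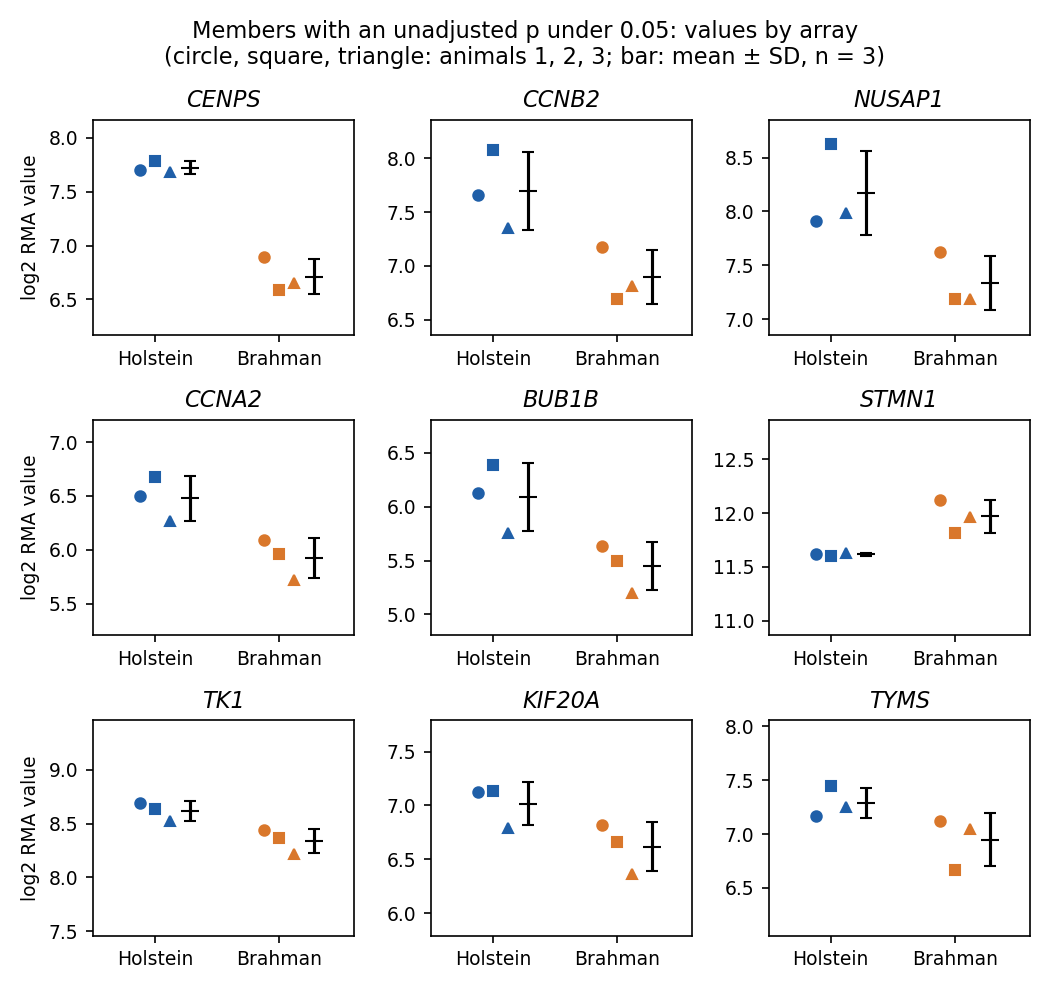
Log2 RMA values on each array for the 9 members with an unadjusted p under 0.05, with the mean ± SD of each breed (n = 3) beside the points, and each panel spanning 2 log2 units. All but KIF20A show no overlap between the breeds, Brahman 1 (circle) is the highest Brahman animal in each panel, and STMN1 is the 1 gene higher in Brahman.

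Mitotic kinases and the chromosomal passenger complex had differences of -0.27 to 0.03 and no unadjusted p under 0.05. Survivin (BIRC5), a subunit of that complex, had the smallest p of the 5 genes: it read 7.69, 7.91 and 7.64 in Holstein and 7.74, 7.34 and 7.36 in Brahman. Brahman 1 lay above 2 Holstein animals, and the difference was -0.27 (SE 0.14, unadjusted p = 0.0908), or -0.16 with the spike-in level in the fit. Borealin (CDCA8), another subunit, differed by -0.20, and the kinases AURKA, AURKB and PLK1 by -0.13, -0.06 and 0.03. On a second, dimmer CDCA8 probe set the difference was 0.11 (SE 0.08, unadjusted p = 0.22), with every Brahman array above every Holstein array. The second probe sets of AURKA and AURKB differed by -0.28 and -0.13, with overlap. The interval for Polo-like kinase 1 ran from -0.19 to 0.26 and that for Aurora B, the enzyme of the passenger complex, from -0.31 to 0.20.

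Among the genes of the spindle checkpoint and of anaphase onset, BUB1B stood lowest in Brahman. BUB1B encodes BubR1, a subunit of the mitotic checkpoint complex that restrains CDC20, and read 6.13, 6.39 and 5.76 in Holstein and 5.64, 5.50 and 5.20 in Brahman. The breeds did not overlap, although Holstein 3 was close to Brahman 1, and the difference was -0.64 (SE 0.18, unadjusted p = 0.00903, adjusted p = 0.229). For BUB1B the fit with the spike-in level gave -0.47 (unadjusted p = 0.225). The related kinase BUB1 differed by -0.11 and BUB3, which carries both to kinetochores, by -0.02 (95% interval -0.23 to 0.20). MAD2L1, the checkpoint protein that binds CDC20 directly, differed by 0.12, CDC20 by -0.10 and the ubiquitin-conjugating enzyme UBE2C by -0.18, with no unadjusted p under 0.05. ZWINT, which links the checkpoint to the kinetochore, read 7.29, 7.83 and 8.02 in Holstein and 6.82, 7.42 and 7.34 in Brahman. Its lowest value was on Brahman 1, the Brahman array that was highest for most other members, and the difference was -0.52 (SE 0.23, unadjusted p = 0.055).

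CENPS gave the 1 called difference of the set, a probe set signal 2.02-fold lower in Brahman than in Holstein. CENPS encodes a small histone-fold protein that pairs with CENPX, acts at the kinetochore as part of the constitutive centromere network, and binds FANCM at stalled replication forks. It read 7.70, 7.79 and 7.68 in Holstein and 6.89, 6.59 and 6.65 in Brahman. The Holstein animals lay close together, and the lowest of them was well above the highest Brahman animal. The means were 7.72 ± 0.06 and 6.71 ± 0.16 (SD, n = 3), and the difference was -1.01 (SE 0.11, unadjusted p = 2.2e-05, adjusted p = 0.0264). CENPS has 1 probe set on the array, so no second reading of the gene was to be had. Whether its probes match the gene equally well in both breeds was not tested. Its size varied little when single arrays were left out, from -1.10 to -0.95, but the adjusted p then ran from 0.0525 to 0.133. The call was also lost with the replicate number as a block (adjusted p = 0.112) and when the fit included the spike-in level (difference -0.99, adjusted p = 0.372), a setting in which limma called 0 of 24016 probe sets.

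CENPX and FANCM, the partners of CENPS, were measured too and not called. CENPX read 8.44, 8.71 and 8.46 in Holstein and 8.44, 8.52 and 8.45 in Brahman, a difference of -0.07 (95% interval -0.31 to 0.17). FANCM differed by -0.28 (SE 0.21), with overlap. In the ARS-UCD2.0 assembly the protein-coding genes next to CENPS are CORT and DFFA on one side and PGD and KIF1B on the other. PGD and KIF1B were not examined, and CORT had no probe set with that single symbol. DFFA, an inhibitor of the apoptotic DNase, has 3 probe sets that differed by 0.02, 0.59 and 0.20. On the second of these every Brahman array lay above every Holstein array (SE 0.13, unadjusted p = 0.00229, adjusted p = 0.157), and the others overlapped. The next gene, PEX14, has 2 that differed by 0.07 and -0.14, with overlap. CENPX and FANCM were on a list chosen by function and with earlier results of these data known. DFFA and PEX14 were chosen after the value of CENPS was seen.

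The other kinetochore genes gave no unadjusted p under 0.05. CENPF, a large kinetochore protein that accumulates before mitosis, differed by -0.21 (SE 0.14), and its second, dimmer probe set by -0.43 (SE 0.19, unadjusted p = 0.0594). NDC80, which binds the microtubule, read 5.89, 6.56 and 5.85 in Holstein and 6.15, 5.81 and 5.74 in Brahman, a difference of -0.20 that rested on Holstein 2. CENPA, the histone H3 variant that marks the centromere, differed by 0.10 at a mean level of 5.15, close to the lower quartile.

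Spindle proteins held the highest member of the set, STMN1, and a member near its low end, NUSAP1. NUSAP1, a microtubule-bundling protein of the mitotic spindle, read 7.91, 8.62 and 7.99 in Holstein and 7.62, 7.18 and 7.19 in Brahman. The breeds did not overlap, Holstein 2 stood above all other animals, and the difference was -0.84 (SE 0.21, unadjusted p = 0.00491, adjusted p = 0.195), 1.79-fold. With the spike-in level in the fit it was -0.32 (unadjusted p = 0.378). KIF20A, a kinesin needed for cytokinesis, read 7.13, 7.14 and 6.79 in Holstein and 6.82, 6.66 and 6.37 in Brahman. Here Brahman 1 was just above Holstein 3, and the difference was -0.40 (SE 0.15, unadjusted p = 0.0307, adjusted p = 0.319). KIF20A differed by -0.28 (unadjusted p = 0.104) without Brahman 3 and by -0.47 (unadjusted p = 0.154) with the spike-in level in the fit. Its unadjusted p stayed under 0.05 in 2 of the 6 fits with an array left out. A second, dimmer KIF20A probe set differed by -0.08, and the mean over its probe sets by -0.24 (unadjusted p = 0.0647). TPX2, which activates Aurora A on the spindle, differed by -0.17 (SE 0.14) and by 0.05 on its second probe set.

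Stathmin (STMN1), a protein that destabilises microtubules and is abundant in lymphocytes as well as in dividing cells, went the other way. It read 11.62, 11.61 and 11.63 in Holstein and 12.12, 11.82 and 11.97 in Brahman. The Holstein animals were nearly identical and all below the Brahman animals, with a difference of 0.35 (SE 0.10, unadjusted p = 0.0105, adjusted p = 0.24), 1.27-fold. Including the spike-in level in the fit gave 0.30 (unadjusted p = 0.17) for STMN1. Of 14 measured T cell markers 12 had higher means in Brahman, 9 with an unadjusted p under 0.05, and their mean level was 9.70 to 9.88 on the Brahman arrays against 9.36 to 9.54 on the Holstein arrays. The log2 of their summed signal was 14.32 to 14.51 against 13.89 to 14.09, and no marker lay below the lower quartile. The part of T cell number in the STMN1 value was not tested. Of the chromosome structure genes only HMGB2, a DNA-bending protein, was measured: it read 11.92, 12.19 and 12.13 in Holstein and 12.03, 12.04 and 11.85 in Brahman. Its difference was -0.11 (SE 0.11), and its second probe set gave -0.01. Over all members, 13 genes had a second probe set. Their differences ran from -0.43 to 0.12, none reached an unadjusted p under 0.05, and 3 of the 13 lay below the lower quartile. Those of BUB1 (0.02), BUB3 (0.12), CDCA8 (0.11), MCM3 (0.07), MCM6 (0.01) and TPX2 (0.05) were higher in Brahman, and the others lower. For BUB1, BUB3, CDCA8, MCM3, TPX2 and CDC6 (-0.14) the sign was opposite to that of the probe set used.

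Animals of the same breed differed in these genes as well. Brahman 1 had the highest value of the 3 Brahman animals in 30 of the 38 genes, where 37.4% of all 9155 genes were highest there. Against the mean of Brahman 2 and 3, it was higher in 34 of 38 genes (89.5%, against 54.8% of all genes), with a median of 0.28 against 0.02. The largest such gaps were for CKS2 (0.67), RRM2 (0.67), CCNB1 (0.57), CDC20 (0.49) and MCM3 (0.45), genes of several phases of the cycle. ZWINT (-0.56), MAD2L1 (-0.39), CDC6 (-0.11) and BUB3 (-0.04) were the 4 exceptions. The average over the 38 genes was 7.97 on Brahman 1, against 7.73 and 7.72 on Brahman 2 and 3 and 8.03, 8.13 and 7.93 on Holstein 1, 2 and 3. Brahman 1 thus lay within the Holstein range, and the breeds overlapped (8.03 ± 0.10 in Holstein and 7.80 ± 0.15 in Brahman, SD, n = 3).

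Among the Holstein animals, Holstein 2 was highest in 21 of 38 genes, where 36.7% of all genes were highest there, and Holstein 3 was lowest in 21, against 40.7%. Over all 6 arrays, 18 members had their highest value on Holstein 2, while 14 and 15 had their lowest on Brahman 2 and Brahman 3. Of all genes 24.9% were highest on Holstein 2, and 15.9% were lowest on each of Brahman 2 and 3. Markers of antibody-secreting cells (JCHAIN, MZB1, PRDM1 and DERL3) averaged 9.53 on Brahman 1 against 9.21 and 9.25 on Brahman 2 and 3, and 9.17 to 9.51 in Holstein. None of these 4 markers was below the lower quartile, and the log2 of their summed signal ran from 12.55 to 12.69 in Brahman and from 12.26 to 12.88 in Holstein. Markers of NK cells averaged 8.41 on Brahman 1 against 7.77 on Brahman 2, with Brahman 3 between them, and 7.52 to 7.63 in Holstein. Their breed differences ran from -0.60 to 2.51 with a median of 0.15, and 1 was called higher by limma and 0 lower. Over all 8 NK markers, of which KLRB1 lay below the lower quartile, the log2 of the summed signal ran from 11.63 to 12.40 in Brahman and from 11.56 to 12.03 in Holstein. Their part in the level of cell cycle genes on Brahman 1 was not tested.

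**Figure D3:**
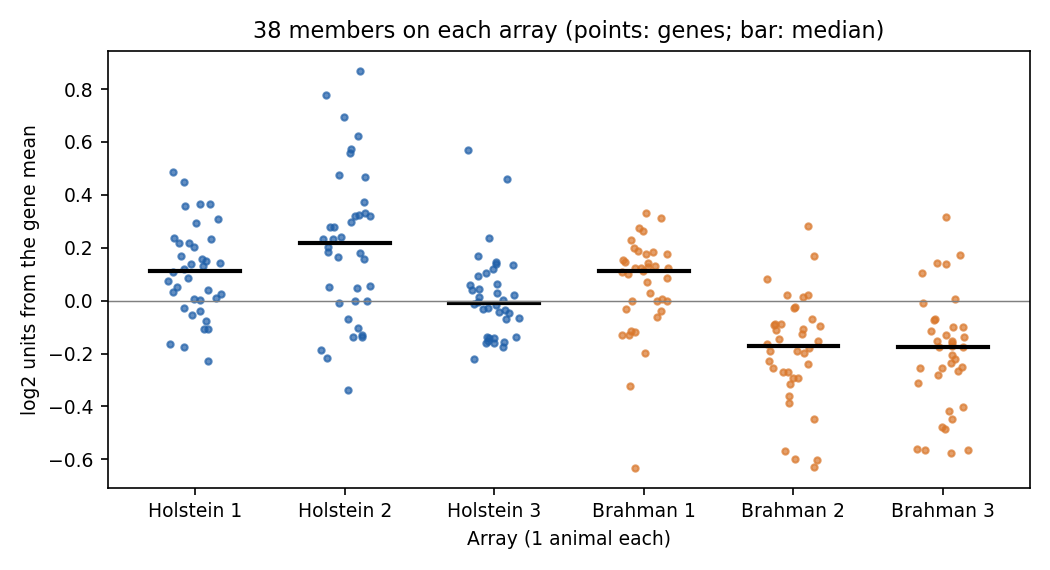
Deviation of each of the 38 members from its own mean over the 6 arrays (y axis, log2 units) on each array (x axis), with the median as a bar. The median is 0.22 on Holstein 2, 0.11 on Holstein 1 and on Brahman 1, -0.01 on Holstein 3, -0.17 on Brahman 2 and -0.18 on Brahman 3.

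Leaving out Brahman 1, the highest Brahman animal in most members, lowers the Brahman means by construction, so the values without it describe the other 5 animals and test nothing. The median over the members was then -0.31, and 15 genes were lower at an unadjusted p under 0.05 (4.83% of all probe sets, a share not taken per gene). BIRC5, CCNB1, CDCA8, CENPF, CKS2, MCM4 and RRM2 joined the 8 genes that were lower with all arrays, with differences of -0.40, -0.72, -0.34, -0.35, -0.71, -0.42 and -0.49. None of the 15 was called, the smallest adjusted p being 0.0528 for CENPS. Without Brahman 3 the median was -0.10, and without Holstein 2 it was -0.13. Brahman 1 was singled out after its values were seen.

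**Figure D4:**
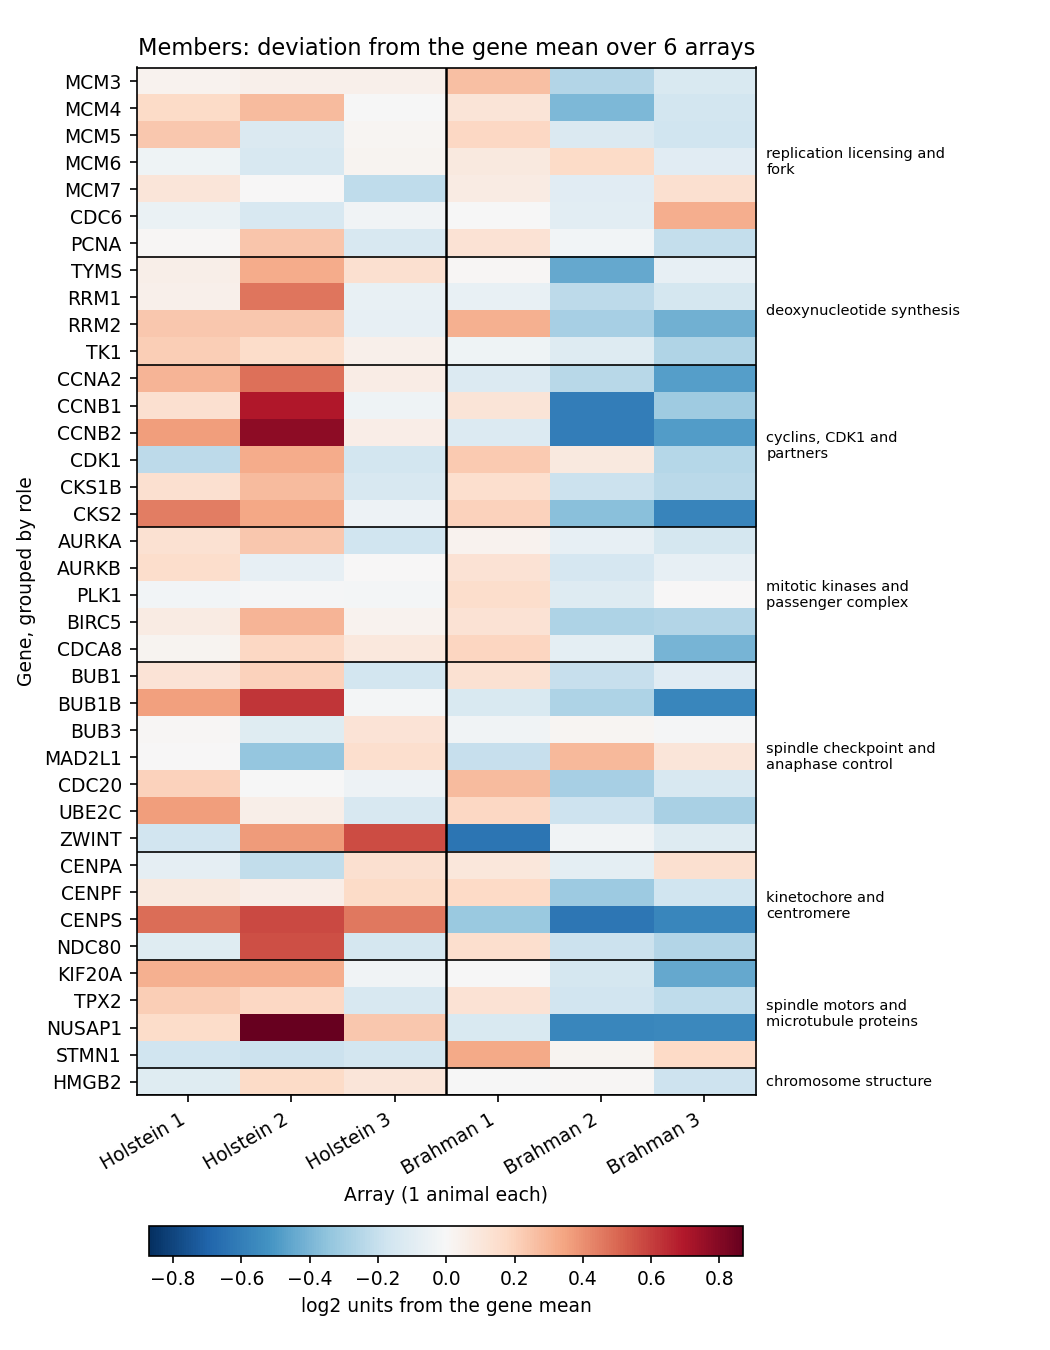
Deviation of each member from its mean over the 6 arrays (colour, log2 units, red above and blue below), with genes in rows by role and arrays in columns. CENPS is high on all Holstein and low on all Brahman arrays, CCNA2, CCNB1 and CCNB2 are highest on Holstein 2 and lowest on Brahman 2 or 3, and most rows are redder on Brahman 1 than on Brahman 2 and 3.

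Other genes of the same pathway had a median difference of the same sign. Of 161 further cell cycle and replication genes, listed by function and with earlier results of these data known, 111 were measured. Of these 75 had lower values in Brahman (67.6%, against 51.7% of all genes), with a median difference of -0.10. At an unadjusted p under 0.05, 11 were lower (9.91%, against 9.62% of all genes) and 3 higher (2.70%, against 6.23%), and 0 were called in either direction. The share of lower genes was thus near that of all genes. In 15 every Brahman array was below every Holstein array (13.5%, against 12.2%), and in 1 above (0.901%, against 10.4%).

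The smallest p of these genes belonged to geminin (GMNN), the inhibitor that keeps origins from being licensed again after they fire. It read 8.58, 8.95 and 8.42 in Holstein and 8.06, 7.86 and 7.59 in Brahman. The breeds did not overlap, and the difference was -0.81 (SE 0.17, unadjusted p = 0.00188, adjusted p = 0.144), similar in size to those of CCNB2 and NUSAP1. GMNN differed by -0.59 (unadjusted p = 0.116) with the spike-in level in the fit. In its list of 41 origin and fork genes 5 were lower and 2 higher at that threshold, and POLD2, a subunit of the lagging strand polymerase, differed by -0.34 (SE 0.10, unadjusted p = 0.00816), or by -0.20 with the spike-in level in the fit. The 2 higher genes were the primase subunit PRIM1 (0.46, unadjusted p = 0.0451) and RPA2 (0.30, unadjusted p = 0.0478), a subunit of the protein that coats single-stranded DNA. RPA2 differed by 0.51 on its probe set of largest variance, and PRIM1 overlapped between the breeds. PRIM1 differed by 0.36 (unadjusted p = 0.138) without Brahman 2, and RPA2 by 0.20 (unadjusted p = 0.142) without Holstein 1. Including the spike-in level gave 0.41 (unadjusted p = 0.321) for PRIM1 and 0.42 (unadjusted p = 0.127) for RPA2. Both were chosen after their values were seen.

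Of 19 regulators of the G1 phase 1 was lower and 1 higher. E2F6, a repressor of the E2F family, read 7.43, 7.63 and 7.42 in Holstein and 7.05, 7.19 and 7.06 in Brahman, a difference of -0.39 (SE 0.10, unadjusted p = 0.00491, adjusted p = 0.195), or -0.21 with the spike-in level in the fit. RB1, the retinoblastoma protein that holds back S phase, was higher by 0.33 (unadjusted p = 0.0158), or 0.61 with the spike-in level, and was chosen after its value was seen. Both separated the breeds without overlap. Of 4 CDK inhibitors 2 were lower, CDKN1C at -0.30 (0.11 on its probe set of largest variance) and CDKN1A, which encodes p21, at -0.42, the latter chosen after its value was seen. Including the spike-in level in the fit gave -0.24 (unadjusted p = 0.215) for CDKN1C and -0.56 (unadjusted p = 0.0693) for CDKN1A.

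Of 8 cohesin and condensin genes 1 was lower: the condensin subunit NCAPG read 7.09, 7.57 and 6.87 in Holstein and 7.01, 6.03 and 6.20 in Brahman. Its difference was -0.76 (SE 0.28, unadjusted p = 0.0275), and Brahman 1 again stood within the Holstein range, as it did for CCNB1. NCAPG differed by -0.51 (unadjusted p = 0.383) with the spike-in level in the fit. Of 10 subunits of the anaphase-promoting complex, the ligase that ends mitosis, 2 were lower, with CDC16 at -0.41 (SE 0.12, unadjusted p = 0.011), or -0.10 with the spike-in level in the fit. Of 24 further spindle and kinetochore genes 0 reached that threshold in limma, and the smallest p was that of DSN1 (-0.33, SE 0.16, unadjusted p = 0.0693), which turned to 0.20 with the spike-in level. In the list of 5 DNA damage checkpoint genes 0 reached it, and the kinase CHEK1 differed by -0.30 (SE 0.18, unadjusted p = 0.14), or by 0.20 with the spike-in level.

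**Figure D5:**
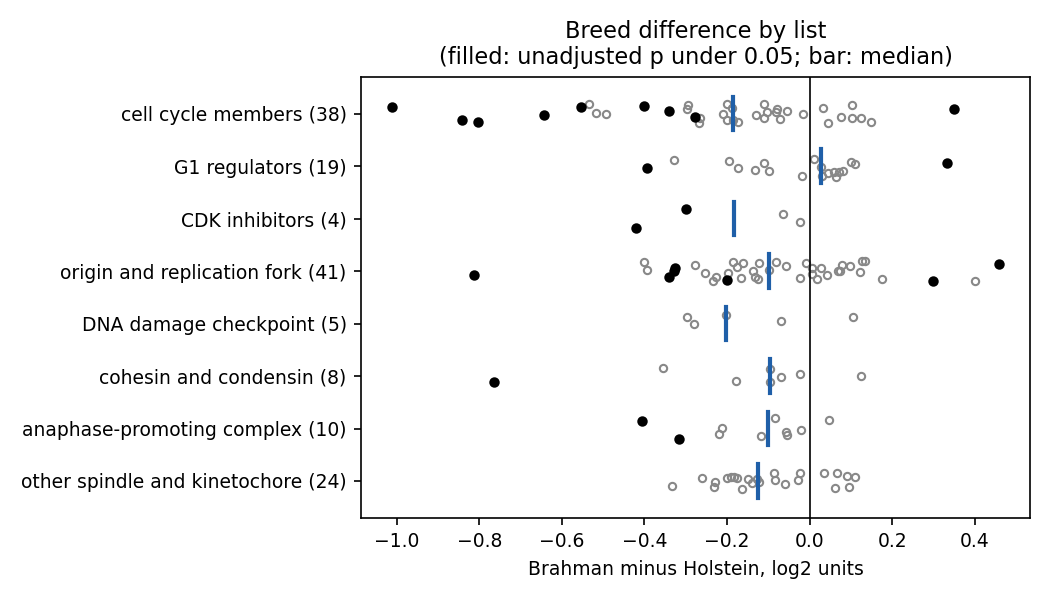
Brahman minus Holstein difference (x axis, log2 units) of each measured gene in the 38 members and in 7 lists of other cell cycle genes, with filled points at an unadjusted p under 0.05 and the list median as a bar. The members reach from -1.01 to 0.35, and GMNN (-0.81) and NCAPG (-0.76) are the lowest of the other genes.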

How the data were processed

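RNA of whole white cell pellets was hybridised to 1 array per animal. The authors deposited 1 log2 value per probe set and array, made with RMA per the submitters' processing notes (version not given in the sources used here), which quantile-normalises the arrays together. Of 24128 probe sets 112 are array controls, and 24016 were tested, 13292 of them with a single gene symbol in the platform annotation, for 9155 genes. Brahman was compared with Holstein with limma 3.58.1 in R 4.3.3 (lmFit, eBayes), with breed as the only term and Benjamini-Hochberg adjustment over all 24016 probe sets; called means an adjusted p under 0.05. SE is the moderated standard error and intervals are 95%. The script was tested on simulated data.

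The members and lists were chosen with earlier results of these data known. Every measured member is reported, with array values for those called, at an unadjusted p under 0.05, without overlap, or with the smallest p of their role. From each list of other genes, the gene with the smallest p and any under 0.01 are named. Precision is limited by having 3 arrays per breed. The neighbours of CENPS were taken from the gene order of the ARS-UCD2.0 assembly; probe sequences and coordinates were not used here.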

Additional observations from a re-analysis of the deposited data

How the results depend on the processing

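The median member difference of -0.19 kept its sign in 10 alternative settings (-0.21 to -0.14) and with each array left out (-0.31 to -0.10), as did that of the other cell cycle genes (-0.10, with -0.12 to -0.03 in both). CENPS was the 1 called member in 8 of the 10 settings. The count of called members was 0 with the replicate block and 0 with the spike-in covariate, where CENPS had adjusted p-values of 0.112 and 0.372, and 0 to 0 with an array left out. The 8 members lower at an unadjusted p under 0.05 became 5 without probe sets below the median, where 32 of 38 members remained to be tested, 2 with the spike-in covariate, and 5 to 15 with an array left out. The 1 higher member became 0 with the spike-in covariate. Members with all Brahman arrays below Holstein numbered 7 to 22 and those above 1 to 3 with an array left out, where fewer arrays make separation easier. The 11 lower other genes became 2 with the spike-in covariate and 6 to 16 with an array left out. The 3 higher ones became 1 with array medians subtracted, 1 without probe sets below the median, 1 with array weights, 7 with the spike-in covariate, 6 with the probe set of largest variance, and 1 to 3 with an array left out. HMGB2 turned from -0.11 to 0.046 with the spike-in covariate. Where no reason is given, the cause was not tested. The replicate numbers in the labels name different animals, so same-numbered arrays were not treated as pairs. Deviations from the breed mean correlated at 0.111, -0.0425 and -0.0737 between same-numbered arrays, and at -0.086 to 0.118 between the others. With 3 arrays per breed, these correlations cannot decide whether the numbers hold a pairing. With the replicate block, 9 members had an unadjusted p under 0.05 and lower values, and 1 higher. Signal against background was not known for any probe set.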
